A study of Mus musculus with 11 samples.

Results

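The transcripts described here are those of 9 genes of innate immune signalling in the mouse hippocampus. They comprise 4 subunits of the transcription factor NF-kB (Nfkb1, Rela, Nfkb2 and Relb), its cytoplasmic inhibitor (Nfkbia) and 4 parts of the inflammasome route to pyroptosis (Nlrp3, Pycard, Casp1 and Gsdmd). They were taken from the 36826 genes of the deposited table by gene symbol, and all 9 were found there.

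Bulk RNA sequencing measured hippocampal tissue of mice aged 14 months in 3 groups. The first comprised 4 libraries of APP/PS1 mice kept in a 0.4 T rotating magnetic field (RMF), and the second 3 libraries of APP/PS1 mice given sham exposure (numbered 1, 3 and 4). The third comprised 4 libraries of age-matched C57BL/6J wild-type mice (WT), for which no sham exposure is recorded. RMF and sham exposure began at 2 months of age and lasted 12 months, on 5 days per week, for 3 h a day until 11 months of age and 6 h a day after that. APP/PS1 mice carry mutant transgenes of the amyloid precursor protein and presenilin and deposit amyloid plaques with age. The sources used here give neither the promoter of the transgenes nor the sex of the animals. No label ties a library to an animal of its own, and pooled RNA is mentioned in the protocol, so p-values below rest on a spread among libraries that may in part be technical. Neurons are named as the cell type, but no isolation of neurons is recorded, and all 12 microglia markers and all 6 oligodendrocyte markers were measured in every group. The values are therefore described as those of whole tissue.

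NF-kB is a family of dimeric transcription factors that inhibitor proteins hold in the cytoplasm until the IkB kinase complex marks the inhibitor for destruction. The canonical arm works through dimers of the products of Nfkb1 and Rela, and the alternative arm through those of Nfkb2 and Relb. Nfkbia, which encodes the inhibitor IkB-alpha, and Nfkb2 are themselves textbook targets of NF-kB, so their transcripts form part of a feedback loop. NF-kB also primes the inflammasome by raising transcription of its sensor, Nlrp3. The sensor recruits the adaptor ASC, encoded by Pycard, which gathers caspase-1 (Casp1), and caspase-1 cuts the precursors of interleukin-1 beta and interleukin-18 as well as gasdermin D (Gsdmd), whose freed fragment forms pores in the plasma membrane. In brain these inflammasome genes are known mainly from microglia. Activation of both systems takes place largely at the protein level, which was not measured here.

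Promoter windows of 3 of the 9 genes (Nfkbia, Nfkb2 and Nlrp3) hold a match to the kB consensus motif, the sequence bound by NF-kB dimers. The windows shown are among those that held a match. The 3 genes are also those named above as targets within the pathway. The windows are those of RefSeq on GRCm38.p6 and run from 250 bases before the annotated start to 50 bases after it, 5′ to 3′ on the strand of the gene. Capitals mark the bases covered by a match on either strand, with overlapping matches joined.
Nfkbia, chr12:55492598-55492897, minus strand: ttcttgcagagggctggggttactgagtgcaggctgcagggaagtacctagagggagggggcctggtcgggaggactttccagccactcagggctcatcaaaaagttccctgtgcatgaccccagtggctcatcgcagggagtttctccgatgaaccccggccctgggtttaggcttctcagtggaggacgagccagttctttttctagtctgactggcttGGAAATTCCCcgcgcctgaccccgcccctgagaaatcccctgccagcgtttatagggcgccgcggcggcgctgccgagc
Nfkb2, chr19:46304487-46304786, plus strand: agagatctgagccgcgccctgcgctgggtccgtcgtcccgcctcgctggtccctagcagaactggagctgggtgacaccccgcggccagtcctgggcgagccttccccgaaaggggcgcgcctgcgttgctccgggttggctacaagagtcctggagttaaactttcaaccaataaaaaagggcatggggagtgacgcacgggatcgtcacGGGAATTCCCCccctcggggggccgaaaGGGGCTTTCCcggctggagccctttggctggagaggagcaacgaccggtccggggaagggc
Nfkb2, second start, chr19:46305445-46305744, plus strand: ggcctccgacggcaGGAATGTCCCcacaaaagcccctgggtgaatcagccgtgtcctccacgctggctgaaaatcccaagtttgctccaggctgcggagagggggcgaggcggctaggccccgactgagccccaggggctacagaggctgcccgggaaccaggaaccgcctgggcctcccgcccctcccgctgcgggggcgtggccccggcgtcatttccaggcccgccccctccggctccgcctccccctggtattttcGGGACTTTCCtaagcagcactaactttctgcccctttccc
Nlrp3, chr11:59541319-59541618, plus strand: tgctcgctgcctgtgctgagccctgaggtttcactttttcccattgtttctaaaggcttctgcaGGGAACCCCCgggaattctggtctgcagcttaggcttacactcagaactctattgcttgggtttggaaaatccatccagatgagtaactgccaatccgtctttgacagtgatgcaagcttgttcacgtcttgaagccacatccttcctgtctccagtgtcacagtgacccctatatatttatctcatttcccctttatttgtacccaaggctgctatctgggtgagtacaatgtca
A further Nfkb2 window overlaps the second and shares its match. The RefSeq table had 9 windows for 6 of the 9 genes, and 5 of these windows held a match, against 4.51% of all 32851 windows of the same length. Most of the matching windows were those of Nfkb2. The windows of Rela, Casp1 and Pycard held no match, nor did a second Nlrp3 window (chr11:59542436-59542735). Sequences for Nfkb1, Relb and Gsdmd were not used here. A match is a description of the letters and no evidence of binding.

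Libraries held 68124548 to 70786786 counts. WT 3 stood apart, with a median correlation of 0.956 to the rest of its group, and summed markers of dentate granule cells of 26.5 CPM (counts scaled to library size) against 247 to 409 CPM in every other library. Its summed neocortex markers reached 754 CPM, the highest of the 11 libraries. In sham 4 mitochondrial transcripts took 9.53% of counts, the highest share, against a lowest share of 5.76%. Results that depend on WT 3 or sham 4 are given below with and without them.

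Levels of the 9 genes were compared per length, as FPKM (fragments scaled to transcript length and library size). In RMF hippocampus the order by mean FPKM was Nfkbia (9.60), Rela (5.90), Nfkb1 (2.24), Gsdmd (1.39), Relb (1.35), Casp1 (1.01), Pycard (0.743), Nfkb2 (0.680) and Nlrp3 (0.416). The first 3 did not overlap between libraries with the gene next in the order, and Nlrp3 lay below every other member in all RMF libraries. From Gsdmd to Nfkb2, the ranges of neighbours overlapped. In sham and in WT hippocampus Nfkbia and Rela overlapped each other, with means of 6.80 and 6.40 FPKM in sham and 6.26 and 6.04 FPKM in WT. Nfkbia, Rela and Nfkb1 thus held the top of the order in each group. Nlrp3 had the lowest mean in each group, at 0.370 FPKM in sham and 0.198 FPKM in WT. In sham its range overlapped that of Nfkb2. Counts behind these levels ran from 30 for Nlrp3 in WT 3 to 2044 for Nfkb1 in RMF 1.

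**Figure D1:**
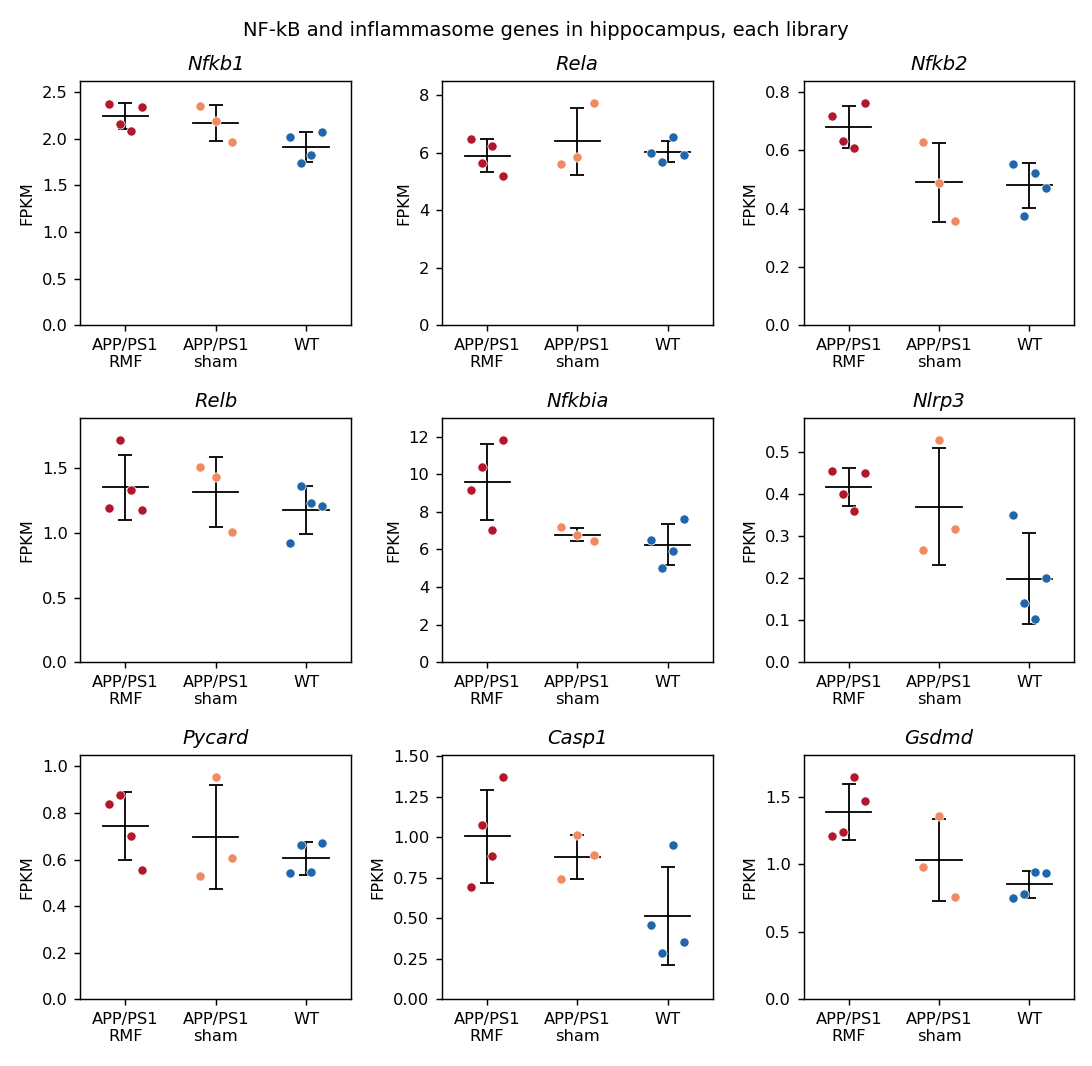
FPKM of each of the 9 genes (vertical axis, from 0, its own scale in each panel) in every library of APP/PS1 RMF, APP/PS1 sham and WT hippocampus (points). Bars are the group mean and SD (n = 4, 3 and 4). RMF points lie above all WT points for Nfkb1, Nfkb2, Nlrp3 and Gsdmd, while 1 WT library (WT 3, 0.956 FPKM) lies among the APP/PS1 points for Casp1.

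Among the subunits of the canonical arm, Nfkb1 averaged 2.24 ± 0.14 FPKM in RMF (SD, n = 4) and 2.17 ± 0.19 FPKM in sham (SD, n = 3), against 1.91 ± 0.16 FPKM in WT (SD, n = 4), and Rela lay near 6 FPKM in all 3 groups. No difference of either gene passed the test. Nfkb1 (chromosome 3, 135290416 to 135397308 in the coordinates of the table, whose build no source used here names) encodes a precursor that is cut to a DNA-binding subunit without a transactivation domain. It stood at 2.37, 2.16, 2.09 and 2.34 FPKM in RMF 1 to 4, at 2.35, 2.19 and 1.97 FPKM in sham 1, 3 and 4, and at 2.02, 1.74, 1.82 and 2.07 FPKM in WT 1 to 4. All RMF libraries lay above all WT libraries, whereas sham 4 lay within the WT range. The fold against WT was 1.17 in RMF (95% interval 1.03 to 1.33, adjusted p = 0.429) and 1.17 in sham (1.02 to 1.34, adjusted p = 0.318), so neither passed the threshold. These and the adjusted p-values below are from edgeR's quasi-likelihood test, adjusted over every gene in the fit by the Benjamini-Hochberg method. Between RMF and sham the log2 difference of Nfkb1 was 0.00020 (fold interval 0.874 to 1.14).

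Rela (chromosome 19, 5687511 to 5698158) encodes the transactivating subunit of the canonical dimer. It stood at 6.49, 5.66, 6.25 and 5.21 FPKM in RMF 1 to 4, at 5.61, 5.85 and 7.73 FPKM in sham 1, 3 and 4, and at 6.00, 5.68, 6.56 and 5.93 FPKM in WT 1 to 4. All 3 groups overlapped, and the highest value of any library was that of sham 4. The Rela fold was 0.976 in RMF against WT (0.806 to 1.18), 1.10 in sham against WT (0.893 to 1.35) and 0.889 in RMF against sham (0.723 to 1.09). Each of these log2 differences changed sign when a library was left out.

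The subunits of the alternative arm stood at lower FPKM than those of the canonical arm, and Nfkb2 had the largest fold of the 4 subunits between RMF and WT. Nfkb2 (chromosome 19, 46292759 to 46300824), the precursor of the DNA-binding subunit of this arm, stood at 0.719, 0.631, 0.609 and 0.761 FPKM in RMF 1 to 4. It stood at 0.628, 0.487 and 0.357 FPKM in sham 1, 3 and 4 and at 0.553, 0.373, 0.521 and 0.471 FPKM in WT 1 to 4. RMF libraries lay above all WT libraries, and sham libraries covered the whole WT range. The Nfkb2 fold was 1.41 in RMF against WT (1.04 to 1.92, adjusted p = 0.462), 1.04 in sham against WT (0.749 to 1.45) and 1.36 in RMF against sham (0.975 to 1.89). None passed. Nfkb2 shares 299 bases with Psd on the opposite strand, which had 20217 to 40507 counts per library against 117 to 252 for Nfkb2, and 1317 bases with 4833438C02Rik. No source used here says whether counting used strand, so the Nfkb2 values are uncertain.

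Relb (chromosome 7, 19340142 to 19363363), the transactivating partner in the alternative arm, stood at 1.19, 1.72, 1.33 and 1.18 FPKM in RMF 1 to 4, at 1.51, 1.43 and 1.01 FPKM in sham 1, 3 and 4, and at 0.922, 1.36, 1.23 and 1.21 FPKM in WT 1 to 4. The groups overlapped throughout. The Relb fold was 1.14 in RMF against WT (0.864 to 1.51), 1.14 in sham against WT (0.845 to 1.55). In RMF against sham its log2 difference was 0.0010 (fold interval 0.740 to 1.35).

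Nfkbia had the smallest p-value of the 9 genes and was the only one with an unadjusted p below 0.05 between RMF and sham. Nfkbia (chromosome 12, 55536195 to 55539432) encodes the inhibitor whose promoter window is shown above. It stood at 9.17, 10.4, 7.06 and 11.8 FPKM in RMF 1 to 4, at 7.18, 6.75 and 6.45 FPKM in sham 1, 3 and 4, and at 6.52, 4.99, 5.92 and 7.61 FPKM in WT 1 to 4. RMF 1, 2 and 4 lay above every sham and WT library, and RMF 3 lay within both ranges. The spread was widest in RMF, with an SD of 2.01 FPKM against 0.365 in sham and 1.10 in WT.

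The Nfkbia fold in RMF was 1.53 against WT (1.196 to 1.96, adjusted p = 0.155) and 1.37 against sham (1.05 to 1.79, adjusted p = 0.725). In sham against WT it was 1.12 (0.859 to 1.46). The RMF difference from WT did not pass in the fit described, but passed without RMF 3 (fold 1.66, adjusted p = 0.0466, where 0.97% of the 14428 genes tested passed) and in DESeq2 (adjusted p = 0.0274). Over its alternatives the adjusted p ran from 0.0274 to 0.420.

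Nlrp3 and Casp1 showed the largest folds of the 9 genes against WT, in sham as well as in RMF hippocampus, and none of these folds passed the test with all libraries included. For each gene, leaving out 1 WT library moved the folds against WT the most. Nlrp3 (chromosome 11, 59432394 to 59457781), the sensor, stood at 0.455, 0.400, 0.359 and 0.449 FPKM in RMF 1 to 4, at 0.267, 0.528 and 0.316 FPKM in sham 1, 3 and 4, and at 0.349, 0.141, 0.102 and 0.200 FPKM in WT 1 to 4. All RMF libraries lay above all WT libraries, while sham 1 and sham 4 lay below WT 1. Counts were low, at 108 to 133 in RMF, 78 to 157 in sham and 30 to 101 in WT.

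The Nlrp3 fold against WT was 2.08 in RMF (1.21 to 3.58, adjusted p = 0.307) and 1.899 in sham (1.06 to 3.39, adjusted p = 0.359), and the fold in RMF against sham was 1.09 (0.614 to 1.95). Without WT 1 the fold in RMF against WT was 2.76 (adjusted p = 0.0632) and that in sham against WT was 2.52 (adjusted p = 0.130). Leaving out WT 3, which had the lowest Nlrp3 level, lowered both folds. They were then 1.79 in RMF against WT (adjusted p = 0.385) and 1.64 in sham against WT (adjusted p = 0.490). Nlrp3 did not reach the adjusted threshold in any alternative tried.

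Casp1 (chromosome 9, 5298508 to 5307290), the protease, stood at 0.696, 1.08, 0.885 and 1.37 FPKM in RMF 1 to 4, at 0.741, 1.01 and 0.893 FPKM in sham 1, 3 and 4, and at 0.462, 0.285, 0.956 and 0.357 FPKM in WT 1 to 4. WT 1, 2 and 4 lay below every APP/PS1 library, and WT 3 lay among them. The Casp1 fold against WT was 1.95 in RMF (1.15 to 3.30, adjusted p = 0.424) and 1.77 in sham (1.01 to 3.10, adjusted p = 0.376), and the fold in RMF against sham was 1.10 (0.627 to 1.93).

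Casp1 met the usual minimum of 1 FPKM in 3 libraries through APP/PS1 libraries alone, so its result without WT 3, the library with few dentate granule cell markers, is given at a minimum of 0.1 FPKM, which all 11 libraries reached. That combination was added after the data had been seen. There Casp1 passed without WT 3 in RMF against WT (fold 2.68, adjusted p = 0.0123, with 1.96% of all genes passing), in sham against WT (fold 2.43, adjusted p = 0.0348, with 1.81% of all genes) and in the mean of both APP/PS1 groups against WT (fold 2.55, adjusted p = 0.00992, with 2.19% of all genes). With WT 3 and sham 4 both left out it passed in RMF against WT (adjusted p = 0.0149, with 2.38% of all genes) and in the mean (adjusted p = 0.0162, with 2.3%), but not in sham against WT (adjusted p = 0.0773). Without WT 3 at a minimum of 1 FPKM, the adjusted p was 0.0190 in RMF against WT (1.45% of all genes), 0.0160 in the mean (1.51%) and 0.0556 in sham against WT. With all libraries, at either minimum, Casp1 passed in no comparison, and at a minimum of 0.1 FPKM its adjusted p in RMF against WT ran from 0.0123 to 0.624 over the alternatives.

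Pycard (chromosome 7, 127588880 to 127593039), the adaptor, stood at 0.838, 0.876, 0.703 and 0.555 FPKM in RMF 1 to 4, at 0.532, 0.953 and 0.609 FPKM in sham 1, 3 and 4, and at 0.542, 0.664, 0.546 and 0.672 FPKM in WT 1 to 4. Every pair of groups overlapped. The gene shares 599 bases with Gm45205 on the opposite strand, which had 3 to 44 counts per library against at least 146 for Pycard. The Pycard fold was 1.22 in RMF against WT (0.862 to 1.72), 1.18 in sham against WT (0.810 to 1.71) and 1.04 in RMF against sham (0.712 to 1.51).

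Gsdmd (chromosome 15, 75734176 to 75739257), which encodes the pore-forming substrate of caspase-1, stood at 1.21, 1.24, 1.64 and 1.47 FPKM in RMF 1 to 4. It stood at 0.979, 1.36 and 0.761 FPKM in sham 1, 3 and 4 and at 0.753, 0.779, 0.941 and 0.932 FPKM in WT 1 to 4. All RMF libraries lay above all WT libraries. Sham 3 lay within the RMF range, sham 4 within the WT range and sham 1 between them. The Gsdmd fold was 1.62 in RMF against WT (1.197 to 2.19, adjusted p = 0.213), 1.24 in sham against WT (0.895 to 1.71) and 1.31 in RMF against sham (0.945 to 1.81). Gsdmd too met the minimum of 1 FPKM through APP/PS1 libraries alone. In RMF against WT its adjusted p in DESeq2 was 0.0594 at that minimum and 0.0387 at 0.1 FPKM, where 3.05% of all genes passed, and it passed in no other alternative tried.

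**Figure D2:**
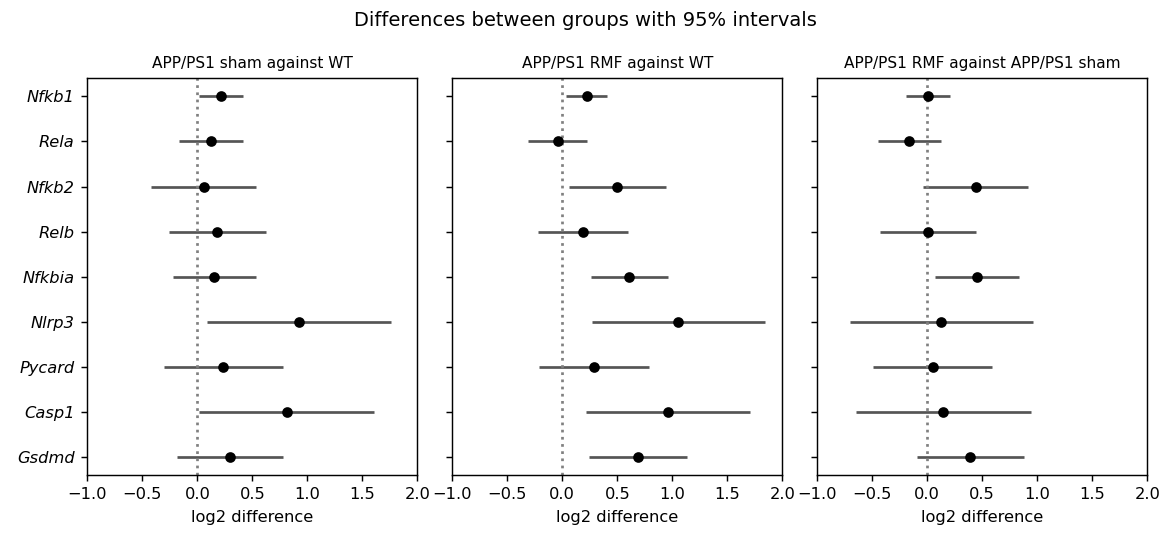
Log2 difference (horizontal axis) of each gene for APP/PS1 sham against WT, APP/PS1 RMF against WT and APP/PS1 RMF against APP/PS1 sham, from the fit that included all 9 genes. Points are estimates and lines 95% intervals, and the dotted line marks no difference. Intervals lie above 0 for 6 of 9 genes in RMF against WT, for 3 in sham against WT and for Nfkbia in RMF against sham.

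Genes were tested where FPKM reached 1 in at least 3 libraries, which kept 14428 genes and 6 of the 9 members. Nfkb2, Nlrp3 and Pycard reached 1 FPKM in no library, and Casp1 (2 RMF libraries and 1 sham library) and Gsdmd (4 RMF libraries and 1 sham library) reached it in APP/PS1 libraries alone. A second fit with a minimum of 0.1 FPKM kept 23915 genes and all 9 members, and the folds of Nfkb2, Nlrp3 and Pycard above are from it. In that fit Casp1 was 1.94-fold and Gsdmd 1.61-fold in RMF against WT, with adjusted p-values of 0.344 and 0.194.

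With all libraries, none of the 9 genes passed the adjusted threshold of 0.05 in edgeR, in either fit, in any comparison. Over all genes the share that passed at a minimum of 1 FPKM was 1.18% in RMF against WT, 0.908% in sham against WT, 0.0% in RMF against sham and 1.44% in the mean of both APP/PS1 groups against WT. At a minimum of 0.1 FPKM these shares were 1.61%, 1.51%, 0.0% and 1.94%. DESeq2 at a minimum of 1 FPKM passed 1 of the 6 members (Nfkbia) in RMF against WT, where 2.18% of genes passed. In the same comparison edgeR passed 1 of the 6 (Casp1) with WT 3 and sham 4 both left out, where 1.86% of genes passed, and in the mean of both APP/PS1 groups against WT also 1 (Casp1), where 1.61% passed. DESeq2 passed 0 members in sham against WT (2.39% of genes), in RMF against sham (0.111%) and in the mean of both APP/PS1 groups against WT (2.84%). In RMF against sham 994 genes had an unadjusted p below 0.05 in edgeR at a minimum of 1 FPKM, and DESeq2 passed 16.

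At an unadjusted p below 0.05 in the fit of 23915 genes, 6 of the 9 members were higher in RMF than in WT (Nfkb1, Nfkb2, Nfkbia, Nlrp3, Casp1 and Gsdmd), against 5.98% of all genes. In sham against WT there were 3 (Nfkb1, Nlrp3 and Casp1), against 6.59% of all genes. In RMF against sham there was 1 (Nfkbia), against 3.37%, and in the mean of both APP/PS1 groups against WT there were 5 (Nfkb1, Nfkbia, Nlrp3, Casp1 and Gsdmd), against 6.71%. FPKM values of RMF and WT libraries did not overlap for 4 of 9 members (Nfkb1, Nfkb2, Nlrp3 and Gsdmd, all higher in RMF), against 4.87% of all genes. No member was higher without overlap in sham against WT (5.8% of all genes), in RMF against sham (6.08%) or in the mean of both APP/PS1 groups against WT (2.73%). The comparisons against WT share the same 4 WT libraries, so their counts are not separate evidence.

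Summed markers of microglia were higher in every APP/PS1 library than in any WT library. The 12 markers summed to 634 to 731 CPM in RMF, 567 to 731 CPM in sham and 371 to 450 CPM in WT, where WT 3 was lowest. At a minimum of 1 FPKM, 7 of the 12 markers passed in edgeR as higher in RMF against WT, among them Csf1r, Cx3cr1 and C1qa. In sham against WT 2 passed (C1qa and Laptm5), and in RMF against sham 0 passed. Over all genes 1.18%, 0.908% and 0.0% passed. All 12 log2 differences lay above 0 in RMF and in sham against WT, with medians of 0.69 and 0.55. At an unadjusted p below 0.05 in edgeR there were 11 and 10, against 8.32% and 13.1% of all genes. The 10 markers of plaque-associated microglia summed to 198 to 235 CPM in RMF, 179 to 226 CPM in sham and 97.1 to 134 CPM in WT. In bulk tissue, more cells of a type and more RNA per cell cannot be told apart, and the part of microglia in the values above was not tested.

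Set against the microglia marker sum of the same library, the medians of 7 of the 9 members were lower in both APP/PS1 groups than in WT, and those of Nlrp3 and Casp1 were higher. The denominator was itself higher in APP/PS1 libraries, and 84.2% of all 23915 genes were lower in both APP/PS1 groups on this scale, so the count of 7 is near that of genes at large. Nfkb1 amounted to 3.67% to 4.54% of the sum in RMF, 3.79% to 5.08% in sham and 4.89% to 6.28% in WT, with no overlap between RMF and WT. Rela amounted to 2.45% to 2.91% in RMF, 2.57% to 4.55% in sham and 4.07% to 5.49% in WT, also without overlap between RMF and WT. On this scale 3 of the 9 members (Nfkb1, Rela and Pycard) were lower in RMF than in WT without overlap, against 52.7% of all genes. In FPKM, 0 of the 9 were lower in RMF than in WT without overlap, against 2.0% of all genes. For Gsdmd the medians were 0.492% in RMF, 0.418% in sham and 0.501% in WT, and the ranges of RMF and WT overlapped. For Nlrp3 they were 0.250% in RMF, 0.247% in sham and 0.171% in WT, with WT 1 the highest of all libraries at 0.324%. For Casp1 they were 0.448% in RMF, 0.455% in sham and 0.309% in WT, with WT 3 the highest of all libraries at 0.819%.

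**Figure D3:**
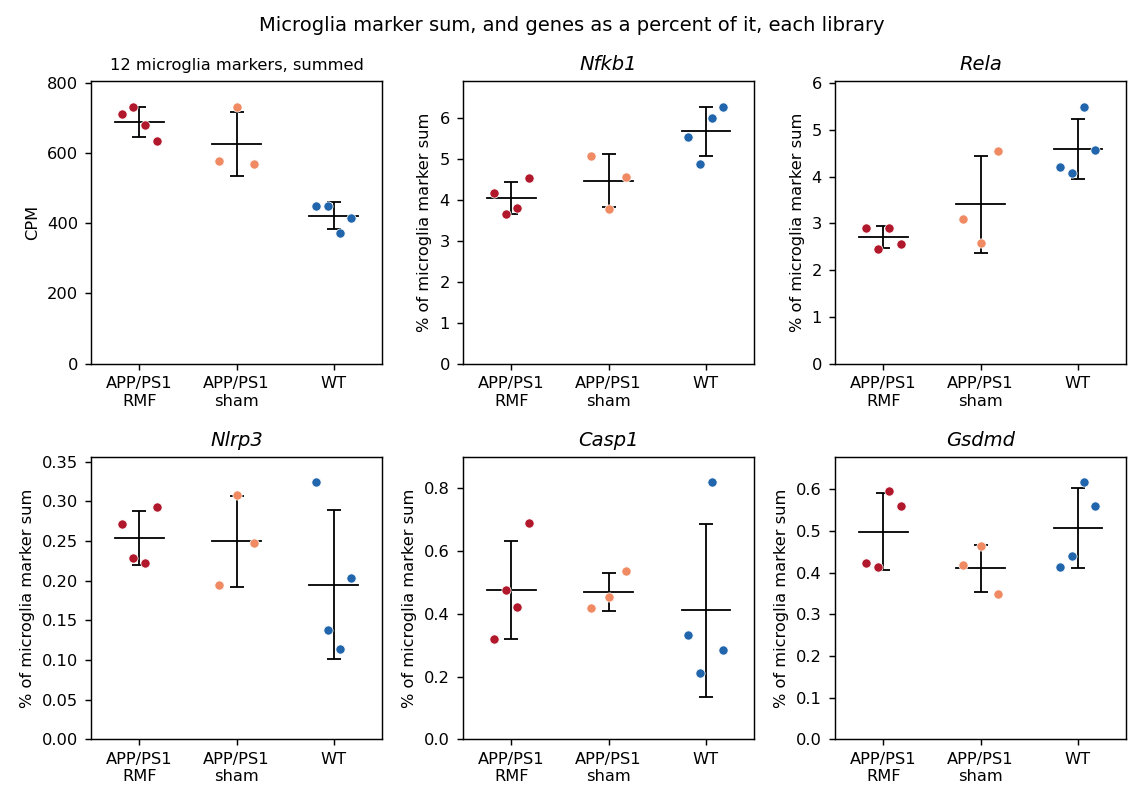
Summed CPM of 12 microglia markers (first panel) and 5 of the 9 genes as a percent of that sum (other panels) in every library of APP/PS1 RMF, APP/PS1 sham and WT hippocampus, with group mean and SD as bars (n = 4, 3 and 4). The sum is lower in all WT libraries (371 to 450 CPM), and Nfkb1 and Rela relative to it are lower in RMF than in WT, as were 52.7% of all genes.

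Sums of other marker lists varied with the groups as well. The 6 neutrophil markers, of a cell type rich in inflammasome transcripts, summed to 4.08, 82.8, 98.6 and 50.4 CPM in RMF 1 to 4, to 45.2, 29.5 and 3.51 CPM in sham 1, 3 and 4, and to 23.8, 6.64, 6.99 and 1.48 CPM in WT 1 to 4. No neutrophil marker was at 0 in all libraries, and of the 5 tested 0 passed in edgeR in any comparison. In RMF against WT 4 had an unadjusted p below 0.05, against 8.32% of all genes. RMF 1, with 4.08 CPM of neutrophil markers, had the lowest Casp1 level of the 4 RMF libraries. Its Gsdmd level (1.21 FPKM) was also the lowest of the 4, close to that of RMF 2 (1.24 FPKM). Its Nlrp3 level (0.455 FPKM) was the highest of the 4, close to that of RMF 4 (0.449 FPKM). RMF 3, with the most neutrophil markers, had the highest Gsdmd (1.64 FPKM) and the lowest Nlrp3 level (0.359 FPKM) of that group. Sham 4, with the fewest among sham libraries, had the lowest Gsdmd level there (0.761 FPKM). Sham 1, with the most, had the lowest Nlrp3 (0.267 FPKM) and Casp1 levels (0.741 FPKM) there. WT 1, with the most neutrophil markers among WT libraries, had the highest Nlrp3 and the lowest Gsdmd level of that group. The 7 liver genes summed to 74.6 to 148 CPM in RMF, 185 to 294 CPM in sham and 0.710 to 17.0 CPM in WT. The 6 astrocyte markers summed to 2156 to 2345 CPM in RMF, 1970 to 2362 CPM in sham and 1316 to 1760 CPM in WT, and the 6 endothelial markers overlapped between all groups. The 6 neuron markers summed to 5746 to 6371 CPM in RMF, 6706 to 7087 CPM in sham and 6196 to 7498 CPM in WT. In RMF against sham, where Nfkbia had an unadjusted p below 0.05, the neuron and liver sums thus did not overlap and both were lower in RMF. The 6 oligodendrocyte markers summed to 4629 to 9409 CPM in RMF, 3912 to 8005 CPM in sham and 2443 to 8042 CPM in WT and overlapped between all groups. Of the 7 lymphocyte markers 3 reached the lower minimum and summed to at most 2.28 CPM. The part of these other cells in the members' values was not tested.

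Few other genes of the pathway passed the test, and Txnip was the 1 that passed at a minimum of 1 FPKM. Txnip encodes a thioredoxin-binding protein that has been described as a partner of the Nlrp3 protein. It stood at 12.0, 10.4, 7.99 and 9.70 FPKM in RMF 1 to 4, at 7.50, 7.95 and 8.55 FPKM in sham 1, 3 and 4, and at 6.56, 4.98, 5.03 and 7.04 FPKM in WT 1 to 4. Every APP/PS1 library lay above every WT library, as was so for 2.09% of the 14428 genes tested. Txnip rose 1.70-fold in RMF against WT (adjusted p = 0.0298) and 1.54-fold in the mean of both APP/PS1 groups against WT (adjusted p = 0.0477), and its log2 difference in sham against WT was 0.49. In RMF against WT the call was lost without RMF 1, 2 or 4, WT 1 or 2, or sham 3, with adjusted p up to 0.115, and with only RMF and WT libraries in the fit (adjusted p = 0.0797). In the mean of both APP/PS1 groups against WT it was lost without any 1 library except RMF 3 and WT 4, with adjusted p up to 0.174, and with WT 3 and sham 4 both left out (adjusted p = 0.143) or in limma, where it just missed the threshold. In DESeq2 Txnip passed in RMF against WT (adjusted p = 0.000259) and in the mean (0.00111), but not in sham against WT (0.128).

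The list of other inflammasome parts had 9 of 20 genes tested, of which Txnip was the 1 that passed, and its median log2 difference in RMF against WT was 0.12, against -0.00070 over all genes. In sham against WT 0 of the 9 passed (2 at an unadjusted p below 0.05, median 0.15), and in RMF against sham 0 passed (0 at an unadjusted p below 0.05, median -0.03). At a minimum of 0.1 FPKM 16 of the 20 were tested and Txnip was again the 1 that passed, with 6 at an unadjusted p below 0.05 in RMF against WT (median 0.16), 5 in sham against WT (median 0.37) and 0 in RMF against sham (median -0.02). Over all genes, 8.94%, 12% and 5.45% had an unadjusted p below 0.05 in these comparisons at that minimum. At 1 FPKM the shares were 8.32%, 13.1% and 6.89%. They are the background for the other lists too. The 17 genes of NF-kB activation (kinases, adaptors and the remaining Rel protein) had 16 tested and 0 passed in any comparison in edgeR, with 3 at an unadjusted p below 0.05 in sham against WT, 1 in RMF against sham and 0 in RMF against WT. Their median log2 difference was 0.04 in RMF against WT, 0.03 in sham against WT and -0.07 in RMF against sham. Tab1, an adaptor of the kinase that activates the IkB kinase complex, had the smallest p of this list. It averaged 5.83 ± 0.58 FPKM in RMF and 4.68 ± 0.10 FPKM in sham (SD, n = 4 and 3), and 5.73 ± 0.41 FPKM in WT (SD, n = 4), with an adjusted p of 0.725 for RMF against sham.

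Of the 11 inhibitors and feedback genes 9 were tested at a minimum of 1 FPKM and 0 passed in edgeR in any comparison, nor had any of them an unadjusted p below 0.05, with a median log2 difference of -0.04 in RMF against WT and -0.12 in sham against WT. Nfkbiz, a nuclear IkB protein, had the smallest p of these 9 and averaged 2.88 ± 0.64 FPKM in sham and 2.46 ± 0.24 FPKM in WT (SD, n = 3 and 4). At a minimum of 0.1 FPKM all 11 were tested and 0 passed, with 1 at an unadjusted p below 0.05 in RMF against WT (Nlrc5), 2 in sham against WT (Nlrc5 and Bcl3) and 0 in RMF against sham. Nlrc5, singled out after its values had been seen, had the smallest p at that minimum and averaged 0.321 ± 0.081 FPKM in RMF (SD, n = 4) and 0.259 ± 0.008 FPKM in sham (SD, n = 3), against 0.148 ± 0.048 FPKM in WT (SD, n = 4). Its fold was 2.16 in RMF against WT (adjusted p = 0.0719) and 1.79 in sham against WT (adjusted p = 0.250). Of the 13 interleukin-1 family genes 5 were tested and 0 passed in edgeR in any comparison, with 1 at an unadjusted p below 0.05, Il18 in RMF against sham. Il18, a substrate of caspase-1, averaged 10.7 ± 1.26 FPKM in RMF and 8.11 ± 0.79 FPKM in sham (SD, n = 4 and 3), with 9.56 ± 0.68 FPKM in WT (SD, n = 4). Its adjusted p for RMF against sham was 0.725. Il1b, the other classical substrate and an NF-kB target, was named for its role after its values had been seen. It lay between 0.211 and 0.347 FPKM in RMF, 0.0432 and 0.328 FPKM in sham and 0.197 and 0.258 FPKM in WT, with 6 to 49 counts per library.

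NF-kB target genes were mostly scarce. Of 17 listed, 4 were tested at a minimum of 1 FPKM and 0 passed in edgeR in any comparison, with Vcam1 the 1 at an unadjusted p below 0.05 in sham against WT. Vcam1, an adhesion molecule of activated endothelium, had the smallest p of these and averaged 2.61 ± 0.08 FPKM in sham and 2.15 ± 0.08 FPKM in WT (SD, n = 3 and 4, adjusted p = 0.235). At a minimum of 0.1 FPKM 16 of the 17 were tested, and the chemokine Cxcl2 was the 1 that passed, lower in the mean of both APP/PS1 groups than in WT (log2 difference -3.07, adjusted p = 0.0388). Cxcl2, singled out after its values had been seen, had 3 to 18 counts in RMF libraries, 4 to 13 in sham libraries and 20 to 189 in WT libraries. The highest was WT 1, at 1.28 FPKM, and without WT 1 the log2 difference was -1.89 (adjusted p = 0.236). The Cxcl2 call was also lost without RMF 1, 3 or 4, sham 1, 3 or 4, or WT 4, with adjusted p up to 0.109, and in limma (adjusted p = 0.357). In DESeq2 Cxcl2 passed in the mean (adjusted p = 0.000893), in RMF against WT (0.00649) and in sham against WT (0.0222). In edgeR without WT 3 it also passed in RMF against WT (adjusted p = 0.0490). Median log2 differences of the 16 targets were 0.15 in RMF against WT, -0.17 in sham against WT and 0.05 in RMF against sham.

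**Figure D4:**
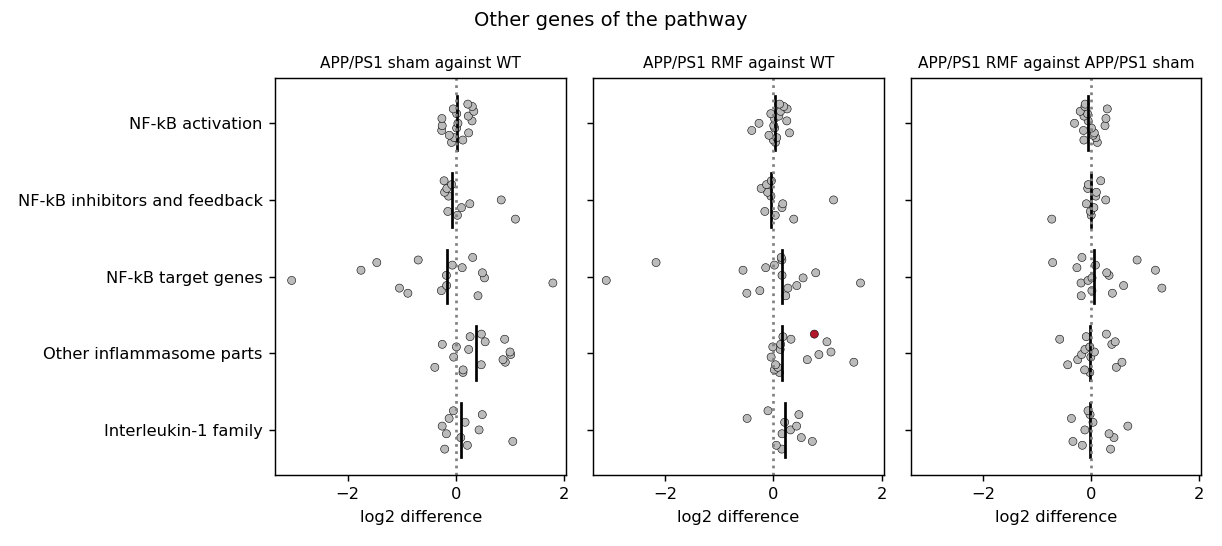
Log2 differences (horizontal axis) of the genes of 5 pathway lists tested at a minimum of 0.1 FPKM, for APP/PS1 sham against WT, APP/PS1 RMF against WT and APP/PS1 RMF against APP/PS1 sham. Points are genes, the black bar is the median of the list and a red point passed the adjusted threshold of 0.05. The red point is Txnip in RMF against WT, and the point far to the left in both comparisons against WT is Cxcl2.

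The genes whose profiles over the 11 libraries were most like that of Nfkbia, the member with the smallest p, were Galnt10, Fgd2 and Fzd4. The root mean square difference of their centred log2 CPM from that of Nfkbia was 0.144, 0.182 and 0.183, against a spread of 0.336 of Nfkbia around its own mean, among 14427 genes compared. Galnt10 averaged 1.75 FPKM in RMF, 1.38 FPKM in sham and 1.22 FPKM in WT. Fgd2 averaged 1.63 FPKM in RMF, 1.05 FPKM in sham and 1.11 FPKM in WT.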

How the data were processed

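The table the authors deposited gives, per gene and library, a raw count in whole numbers and an FPKM value. Per the labels' protocols, libraries were made with oligo(dT) beads from 5 µg of total RNA, sequenced as paired reads of 150 bp and filtered with Cutadapt 1.9. HISAT2 2.0.4, StringTie 1.3.4d and edgeR were used, per the submitters' processing notes, which list a human genome build although the gene identifiers are mouse ones. No source used here names the mouse build, the counting tool or its handling of strand and of reads with several matches. For most genes with at least 50 counts in every library, the deposited FPKM values were close to rescaled counts. Across libraries, their ratio of count to FPKM relative to the library scale had a median coefficient of variation of 0.0422% over 14972 genes. Nlrp3 and Cxcl2 had fewer counts in some libraries and were not part of this check. The table held 2 columns of values that matched no sample, which were not used.

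Counts were tested with edgeR 4.0.16 (R 4.3.3), using TMM normalization, robust quasi-likelihood dispersions, a single fit of the 3 groups (11 libraries) without covariates, for genes with FPKM of at least 1 in 3 libraries. Members under that minimum were read from the same fit at 0.1 FPKM. P-values were adjusted over all genes of a fit, with a threshold of 0.05. No test was made over the members or lists. The script was tested on simulated counts. DESeq2 1.42.0, limma 3.58.1 on log2(FPKM + 1), another normalization, other minima, fewer groups, a replicate block and left-out libraries were tried. Each library was counted as 1. Within groups, counts of each pair of libraries differed beyond sampling noise, with a chi-square of at least 18.5 per degree of freedom. Separate preparations can differ in this way too, so the value does not show that each library came from an animal of its own.

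The members, the pathway and marker lists and the tests were chosen with earlier results of these data known. Named were all 9 members, per pathway list the genes that passed (or else the gene of smallest p), and the 3 genes most like the member of smallest p. Depth was 68124548 to 70786786 counts per library. For Nlrp3, at 30 to 157 counts, counting error adds to the spread between libraries.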

Additional observations from a re-analysis of the deposited data

How the results depend on the processing

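Of 663 values of single members under the alternatives planned, 621 kept their direction and their side of the threshold, 36 changed sign without passing in either case, and 6 passed where they had not, namely Nfkbia in RMF against WT (in DESeq2 and without RMF 3) and Casp1 in RMF and in the mean of both APP/PS1 groups against WT (without WT 3, and with WT 3 and sham 4 both left out). The cause was not tested. Casp1 entered this fit through APP/PS1 libraries alone. At a minimum of 0.1 FPKM, added after seeing the data, it passed in the same cases and in sham against WT without WT 3, and Gsdmd passed in DESeq2 in RMF against WT. The number of members that passed in RMF against WT was 1 in DESeq2 (2.18% of all genes) and 1 with WT 3 and sham 4 left out (1.86%), and 0 to 1 with 1 library left out. In the mean of both APP/PS1 groups against WT it was 1 with those 2 libraries left out (1.61%), and 0 to 1 with 1 library left out.

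Genes that passed over the whole table numbered 131 in sham against WT, 0 in RMF against sham, 170 in RMF against WT and 208 in the mean of both APP/PS1 groups against WT. DESeq2 gave 345, 16, 315 and 410. A minimum of 0.1 FPKM gave 362, 386 and 465 in the comparisons against WT, and no filter 377, 396 and 464, where more genes were tested. With only the compared groups in the fit, 73 passed in sham against WT and 2 in RMF against sham. With WT 3 and sham 4 left out, 269 passed in RMF against WT. Leaving out 1 library gave 89 to 155 in sham against WT, 0 to 1 in RMF against sham, 121 to 209 in RMF against WT and 143 to 218 in the mean of both APP/PS1 groups against WT.

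The replicate block, a fit that pairs libraries of the same number, gave 82, 107 and 126 genes in sham against WT, RMF against WT and the mean against WT. Same-numbered libraries had correlated deviations of -0.25 to 0.16 and share only a number. The block turned the log2 difference of Nfkb2 in sham against WT to -0.018, and in RMF against sham that of Relb to -0.11 and that of Pycard to -0.0033. It passed no member. With it the Txnip call was lost in RMF against WT (adjusted p = 0.0592) and in the mean against WT (adjusted p = 0.0878), as was that of Cxcl2 in the mean against WT (adjusted p = 0.274).

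None of the results that changed sign had passed, and their log2 differences with all libraries were at most 0.23 in size (Pycard in sham against WT). In RMF against sham, Nfkb1 was -0.0045 in DESeq2, -0.0044 with RLE normalization and -0.0041 with only the compared groups, and Relb was -0.0037, -0.0034 and -0.0028. With WT 3 and sham 4 left out, Nfkb1 was -0.041, Rela 0.021, Relb -0.14 and Pycard -0.021 in RMF against sham, Rela was -0.023 in sham against WT and -0.013 in the mean against WT, and Il18 was 0.011 in the mean against WT. With 1 library left out, log2 differences in RMF against sham ranged from -0.042 to 0.041 for Nfkb1, -0.27 to 0.020 for Rela, -0.14 to 0.090 for Relb, -0.069 to 0.47 for Nlrp3, -0.12 to 0.33 for Pycard, -0.037 to 0.28 for Casp1 (-0.038 without RMF 4 at a minimum of 0.1 FPKM), -0.22 to 0.059 for Nfkbiz and -0.77 to 0.38 for Cxcl2. In sham against WT they ranged from -0.059 to 0.24 for Rela, -0.14 to 0.22 for Nfkb2 and -0.044 to 0.41 for Pycard. In RMF against WT they ranged from -0.087 to 0.025 for Rela and -0.026 to 0.088 for Tab1, and in the mean against WT from -0.049 to 0.10 for Rela and -0.047 to 0.024 for Il18.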
